A study of Mus musculus with 31 samples.

Results

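Cell cycle and DNA replication genes were examined in brain, liver, spleen and thymus of mice heterozygous for Dll1, the gene of the Notch ligand Delta-like 1. Members were taken by gene symbol. They were the A, B, D and E cyclins, the Cdk, Cdkn and Cdc genes with a number or letter, every symbol that starts with Mcm, Aurk, Bub, Plk or E2f, and Mki67, Top2a, Pcna, Rrm1, Rrm2 and Tyms. The rule found 112 rows of 79 genes among 12760 named rows of 9026 genes on an array table of 20794 rows. Of the 79 genes, 54 had 1 row and 25 had several. A symbol rule also catches genes whose main work lies outside cell division. Under roles in the cycle or among the Cdk genes fell 81 rows of 55 genes. These include 18 rows of kinases with roles in transcription or elsewhere. A further 29 rows of 22 genes (for example Cdc42, a small GTPase of the actin cytoskeleton) were caught by their symbol, and 2 rows fell under neither. The symbol group also holds Cdk5rap2, a centrosomal protein, and Mcmbp, an Mcm-binding protein, so its border is not sharp. Mki67, Tyms, Ccnd1 and Ccnb1 had no named row.

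Total RNA of 4 male mice of the Dll1 line, 17 weeks old, was hybridised on dual-colour cDNA arrays against a wild-type RNA pool of the same organ from male mice of 18 weeks. Each mouse and organ had 2 arrays with swapped dyes, except thymus of mouse 2 with 1 array. Thymus thus had 7 arrays and every other organ 8, a total of 31. The labels name the line Dll1 without the allele, and the study's methods describe heterozygous Dll1tm1Gos/+ animals, in which a lacZ insertion disrupts Dll1 in every cell, on a C3H background. The labels and the study differ in the age and number of the mice, the amount of RNA and the series record cited, so it is not certain that these are the same animals. The allele, the background and the base of the logarithm rest on the study alone. Since every array carried the same kind of pool, the spread between control animals was not measured, and the sources differ on how many animals the pool held. No source states the direction of the deposited log2 ratio. Mutant over pool is the likely reading, because the labels give the mutant as channel 1 on every array and the study tabulates ratios of mutant against wild type. Pool over mutant would turn every sign below, and Cy5 over Cy3 is given as another reading. The link from rows to genes is inferred as well: a row was given the gene that the probe table lists 11 places earlier, a displacement at which the mean correlation of rows of one gene was 0.0352, against 0.0041 with no displacement. In the last part of the table, which holds 9 of the 112 member rows, this displacement was not borne out (mean correlation -0.0118), so the names of those 9 rows are uncertain beyond the others.

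A dividing cell passes from G1 through DNA synthesis to mitosis under cyclin-dependent kinases, whose cyclin partners are made and destroyed in turn and whose inhibitors, the Cdkn proteins, hold the cycle back. E2F factors switch on the genes of DNA synthesis, the Mcm proteins form the helicase that opens replication origins, and polo and aurora kinases, with the Bub checkpoint proteins, run mitosis. Adult thymus and spleen contain dividing lymphoid cells, whereas adult brain and liver contain few dividing cells. Notch ligands of the Delta family act on lymphoid development, and Dll1 is required for marginal zone B cells of the spleen.

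Promoters of 4 member genes are shown because they carry the letters associated with periodic expression in the cycle and belong to genes described below: Top2a, topoisomerase II alpha, Mcm6 and Mcm5, subunits of the replicative helicase, and Bub3, a spindle checkpoint protein. Each run is the 250 bases before the annotated start, 5′ to 3′ on the gene's strand (RefSeq, GRCm38.p6). Capitals mark matches on either strand, overlapping ones included, to CCAAT (read on the other strand as ATTGG), to TTTGAA (or TTCAAA), the core of the cell cycle homology region, and to the E2F type letters TTTGGCGC, TTTCGCGC and GGCGGGAA.
Top2a, chr11:99024190-99024439, minus strand: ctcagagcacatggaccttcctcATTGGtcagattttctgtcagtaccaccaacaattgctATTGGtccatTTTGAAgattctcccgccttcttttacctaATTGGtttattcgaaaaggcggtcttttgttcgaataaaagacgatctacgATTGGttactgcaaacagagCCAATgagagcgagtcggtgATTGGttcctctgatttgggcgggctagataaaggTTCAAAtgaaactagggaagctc
Mcm6, chr1:128359706-128359955, minus strand: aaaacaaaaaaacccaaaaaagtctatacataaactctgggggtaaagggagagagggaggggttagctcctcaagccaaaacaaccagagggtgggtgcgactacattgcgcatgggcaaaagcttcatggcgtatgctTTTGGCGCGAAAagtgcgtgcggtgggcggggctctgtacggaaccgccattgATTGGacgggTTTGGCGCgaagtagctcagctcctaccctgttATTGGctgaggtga
Mcm5, chr8:75109259-75109508, plus strand: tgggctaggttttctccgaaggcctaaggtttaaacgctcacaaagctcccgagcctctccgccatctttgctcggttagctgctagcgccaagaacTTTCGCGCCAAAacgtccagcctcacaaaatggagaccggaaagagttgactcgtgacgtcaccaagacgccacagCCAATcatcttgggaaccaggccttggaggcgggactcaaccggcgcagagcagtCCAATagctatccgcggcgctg
Bub3, chr7:131560120-131560369, plus strand: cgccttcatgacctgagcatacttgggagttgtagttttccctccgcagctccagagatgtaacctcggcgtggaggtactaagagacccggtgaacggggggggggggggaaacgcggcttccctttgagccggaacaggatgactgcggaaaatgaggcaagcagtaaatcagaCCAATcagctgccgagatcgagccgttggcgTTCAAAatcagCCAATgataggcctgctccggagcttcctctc
The Top2a window held 8 matches, 6 of them CCAAT. Mcm6 held 5 and Mcm5 held 4, and in both the letters TTTGGCGC and TTTCGCGC overlapped on opposite strands. Bub3 held 3. Over the table, windows were found for 68 of the 79 member genes (78 windows, since some genes have several starts). Any of the E2F letters occurred in 8.97% of the member windows and in 2.48% of all 32851 windows, CCAAT in 55.1% and 33.8%, and TTTGAA in 16.7% and 16%. These are shares of letters only, and no factor's binding was measured.

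No member row differed from the wild-type pool in any organ after adjustment. limma fits of the mouse means against 0, with Benjamini-Hochberg adjustment over all rows with at least 3 mice, called 0 of 107 member rows in brain, 0 of 107 in liver, 0 of 109 in spleen and 0 of 110 in thymus, beside 0% of all rows tested in brain, 0% in liver, 0% in spleen and 0% in thymus. The smallest adjusted p among members was 0.42 in brain, 0.921 in liver, 0.414 in spleen and 0.86 in thymus (limma). The values below are therefore descriptions of rows that did not pass. Many of the named rows were picked for a small p in their organ. That choice by itself favours mice on 1 side of 0, so such agreement adds no support. Counts at an unadjusted p under 0.05 are given with the share of all rows that reached it, because the members can be read only against that share.

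In brain, 14 of 107 member rows lay above 0 at an unadjusted p under 0.05 (limma), where 7.25% of all rows did, and 1 lay below 0, where 4.44% of all rows did. In spleen the order was the other way, with 8 of 109 below 0 (5.1% of all rows) and 4 above 0 (5.57%). Thymus had 4 of 110 below 0 (2.44% of all rows) and 1 above 0 (0.684%). Liver had 1 of 107 below 0 (1.79% of all rows) and 0 above 0 (2.7%). With each array centred on its own median the brain split became 5 below (7.36% of all rows) and 11 above (5.54%), and the spleen split 12 below (7.26% of all rows) and 3 above (3.98%), so the whole array shifted with the members. The counts moved with single mice: brain had 9 such rows in all without mouse 1 or without mouse 3, spleen had 2 without mouse 2 and 1 without mouse 3 or 4, thymus had 0 without mouse 1 and 2 without mouse 4, and liver had from 2 to 4 with any mouse left out. Read as Cy5 over Cy3, the numbers below and above were 8 and 11 in brain (8.91% and 11.5% of all rows), 8 and 11 in liver (6.54% and 8.34%), 4 and 5 in spleen (5.23% and 5.05%), and 2 and 3 in thymus (2.08% and 2.3%). The larger liver count was thus shared by the whole array.

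The median log2 ratio over member rows was 0.042 in brain, beside 0.036 over all rows, and 0.018 in liver, beside 0.016. In thymus it was 0.0034, beside -0.0072. Spleen was the organ in which the medians stood furthest apart, with -0.033 over member rows and 0.086 over all rows, and 57 of 109 member rows below 0 (52.3%) against 40.7% of all rows. In brain, liver and thymus, 46.6%, 47.0% and 51.3% of all rows lay below 0. The counts by role given further on stand beside these shares, and several rows of a role can belong to 1 gene. By mouse, the spleen medians of the members were -0.15, -0.070, -0.021 and -0.14 for mice 1 to 4, where all rows had medians of 0.30, 0.041, 0.017 and 0.045. The members thus lay below the whole array in each of the 4 spleens, by 0.45, 0.11, 0.038 and 0.19. The spleen arrays of mouse 1 gave fewer values than the others (12693 and 15347, against a median of 20312 over the 31 arrays), and only 52 member rows could be read there. Without mouse 1 the spleen median over members was -0.039, and without mouse 2 or 3 it was -0.10 or -0.12. It lay above 0 with values kept where a mouse had 1 array (0.0044), with a dye term (0.0044) and with mutant RNA in Cy5 alone (0.017), where the medians over all rows were 0.13, 0.11 and 0.12. Read as Cy5 over Cy3 it was 0.097, above the 0.042 of all rows. In brain the members lay above all rows in 3 of 4 mice, most in mouse 4, by 0.17, and 1 of the brain arrays of that mouse gave 16152 values.

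**Figure D1:**
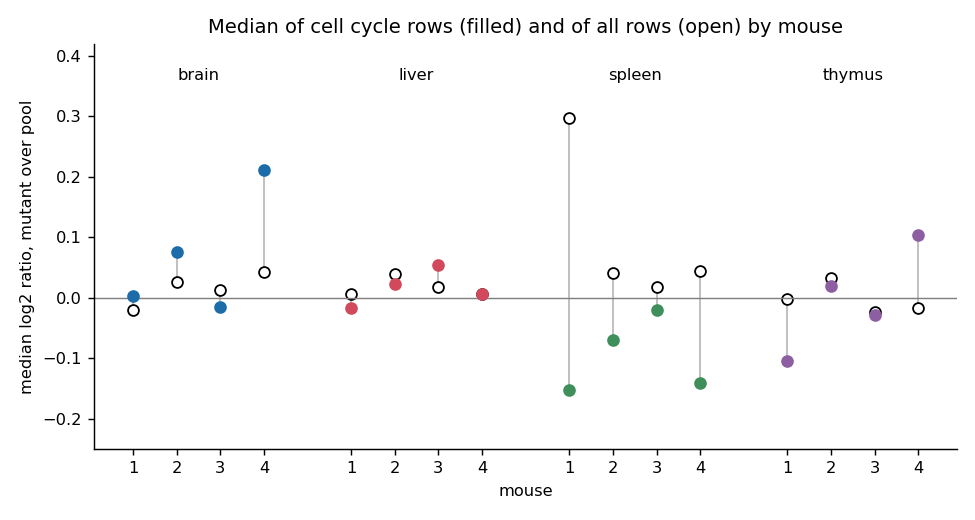
Median log2 ratio (vertical axis, mutant over pool) over the cell cycle and replication rows (filled) and over all rows (open) for each of the 4 mice in brain, liver, spleen and thymus. In spleen the filled point lies below the open one in all 4 mice, and in the other organs the order differs between mice.

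The D and E cyclins and their kinases Cdk2, Cdk4 and Cdk6, which drive G1 and entry into DNA synthesis, had 8 rows. Their medians were 0.17 in brain, -0.030 in liver, 0.13 in spleen and -0.032 in thymus, with 5, 4, 4 and 4 of 8 rows above 0. In thymus, Ccne1 (cyclin E1, the partner of Cdk2) measured 0.47, 0.20, 0.28 and 0.18 in mice 1 to 4, a mean of 0.28 ± 0.13 (SD, n = 4; limma adjusted p = 0.86). All 4 values were above 0. The last-part row of Ccnd2 (cyclin D2) measured -1.09, -1.61, -0.49 and 0.05 in thymus, a mean of -0.79 ± 0.72 (SD, n = 4; limma adjusted p = 0.86), with mouse 4 apart from the others. The other Ccnd2 row had a thymus mean of 0.54 ± 1.15 (SD, n = 4), on the other side of 0.

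Cdk4, the D cyclin kinase, measured 0.07, 0.15, 1.05 and 0.44 in liver, a mean of 0.43 ± 0.44 (SD, n = 4; limma adjusted p = 0.921). All mice were above 0 and mouse 3 was the highest. The Cdk4 mean was -0.33 with mutant RNA in Cy5 and 1.19 with mutant RNA in Cy3. The study lists Cdk2 among the genes downregulated in liver. Here a Cdk2 row measured -0.23, -0.21, 0.47 and -0.45 in that organ, a mean of -0.11 ± 0.40 (SD, n = 4; limma adjusted p = 0.959). Its last-part row read 0.39, -0.15, 0.01 and -0.22, a mean of 0.0096 ± 0.27 (SD, n = 4; limma adjusted p = 0.994). The mice fell on both sides of 0 in both Cdk2 rows, so neither showed the decrease that the study lists. It is not certain that the animals are the same. The last-part row was at 0.75 with mutant RNA in Cy5 and -0.73 with mutant RNA in Cy3. In the other organs the 2 Cdk2 rows had means of -0.54 and -0.41 in brain, -0.09 and 0.67 in spleen, and 0.04 and -0.24 in thymus.

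The A and B cyclins and Cdk1, the kinase of mitotic entry, had 6 rows (Ccna1, 2 of Ccna2, 2 of Ccnb2 and Cdk1). In brain 5 of 6 lay above 0, with a median of 0.63, and in liver all 6 lay below 0, with a median of -0.24. The brain means included 0.84 ± 0.61 for a Ccnb2 row, 0.82 ± 0.68 for Cdk1 and 0.96 ± 1.25 for a Ccna2 row (SD, n = 4). The other Ccnb2 row was at 0.32, the other Ccna2 row at -0.08 and Ccna1 at 0.45. With mutant RNA in Cy5 and Cy3, the higher Ccnb2 row read -0.11 and 1.79 in brain. The higher Ccna2 row read 0.30 and 1.63, and Cdk1 read 1.38 and 0.25. In the liver the means ran from -0.45 to -0.12, and no row there reached an unadjusted p under 0.05. Medians by dye orientation were 0.29 (mutant in Cy5) and 0.31 (mutant in Cy3) in brain, and -0.58 and -0.04 in liver. Spleen had 4 of 6 above 0 (median 0.089) and thymus 2 of 6 (median -0.058).

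The Cdk inhibitors, 6 rows of Cdkn1a, Cdkn1b, Cdkn1c, Cdkn2c and Cdkn2d, had medians of 0.090 in brain, 0.11 in liver, 0.099 in spleen and 0.062 in thymus. In thymus all 6 lay above 0, between 0.011 and 0.18, and none had an unadjusted p under 0.05. The Cdc25 phosphatases, which remove the inhibitory phosphates from Cdks, had 4 rows. Cdc25c was at 0.21, 0.47, 0.11 and 0.56 in liver, a mean of 0.34 ± 0.21 (SD, n = 4; limma adjusted p = 0.921), and its means were above 0 in the other organs as well (0.52, 0.29 and 0.69 in brain, spleen and thymus, with SDs of 0.64, 0.44 and 1.40). A Cdc25a row was at -0.47 ± 0.19 in spleen (SD, n = 4).

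E2F factors had 6 rows of E2f1, E2f2, E2f4 and E2f6. In spleen 4 of 6 lay below 0, with a median of -0.26, and in thymus 5 of 6 lay above 0, with a median of 0.12. Brain and liver medians were -0.086 and 0.079. An E2f2 row stood at 0.62 ± 0.35 in brain (SD, n = 4), above 0 in 4 of 4 mice, and the other E2f2 row, whose name is uncertain, at 0.03 ± 0.59.

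Replication licensing and helicase genes (Mcm2 to Mcm7, Mcm10, Cdc6 and Cdc45) had 12 rows. In brain 9 of 11 tested rows lay above 0, with a median of 0.45 and 3 above 0 at an unadjusted p under 0.05, where 7.25% of all rows were. The median of this role was 0.29 with mutant RNA in Cy5 and 0.55 with mutant RNA in Cy3. Mcm4 was the lowest, at -0.36 ± 0.30 (SD, n = 4), with 0.11 in Cy5 and -0.83 in Cy3. In spleen 8 of 12 lay below 0, with a median of -0.15. Liver and thymus medians were -0.033 and 0.0012. Mcm10, a replication factor that acts at origins, had the row with the smallest p of this group in brain. It measured 0.84, 0.32, 1.00 and 0.74 in mice 1 to 4, a mean of 0.73 ± 0.29 (SD, n = 4, limma adjusted p = 0.42). A further Mcm10 row in brain averaged 0.77 ± 0.71 (SD, n = 4), with mouse 3 at -0.02, and the remaining one was read in 2 mice only. That remaining row measured 0.63, 0.11, 0.61 and 0.45 in thymus, a mean of 0.45 ± 0.24 (SD, n = 4; limma adjusted p = 0.86), where the other Mcm10 rows were at -0.16 and -0.05.

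The single helicase subunits differed among themselves. In spleen, Mcm4 measured -0.39, -0.44, -0.30 and -0.71, a mean of -0.46 ± 0.18 (SD, n = 4; limma adjusted p = 0.452), and Mcm5 -0.45, -0.67, -0.07 and -0.46, a mean of -0.41 ± 0.25 (SD, n = 4; limma adjusted p = 0.48). Both were below 0 in all 4 spleens. Mcm6 and Mcm7 were at -0.15 each, Mcm3 at -0.03, and Mcm2 at 0.45 ± 0.91, with mouse 1 at 1.81 and the other mice between -0.07 and 0.11. In liver the rows for Mcm2 to Mcm7 had means between -0.28 and 0.22, and in thymus between -0.29 and 0.22. Top2a, which untangles replicated chromosomes, averaged -0.0044 ± 0.32 in liver, -0.21 ± 0.35 in spleen and 0.13 ± 0.47 in thymus (SD, n = 4), and was read in 2 brain samples.

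Pcna, the sliding clamp of the replicative polymerases, and Rrm1 and Rrm2, the subunits of ribonucleotide reductase, had 5 rows. All 5 lay below 0 in spleen (median -0.30, from -0.37 to -0.080) and in thymus (median -0.048, from -0.26 to -0.015), and all 5 lay above 0 in liver (median 0.17, from 0.018 to 0.56). None of these 15 values reached an unadjusted p under 0.05. The rows of Pcna in spleen were at -0.16, -0.40, -0.23 and -0.42, a mean of -0.30 ± 0.12, and at -0.20, -0.53, 0.03 and -0.56, a mean of -0.32 ± 0.28 (SD, n = 4). By dye, the spleen median of the 5 rows was 0.017 with mutant RNA in Cy5 and -0.68 with mutant RNA in Cy3, so the lower values came from 1 orientation. In brain, 1 Rrm2 row had the highest mean of the 107 tested member rows, 1.39 ± 1.45 (SD, n = 3), with mouse 3 at 3.01, and the other Rrm2 row had a mean of -0.022 ± 0.61 (SD, n = 4).

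**Figure D2:**
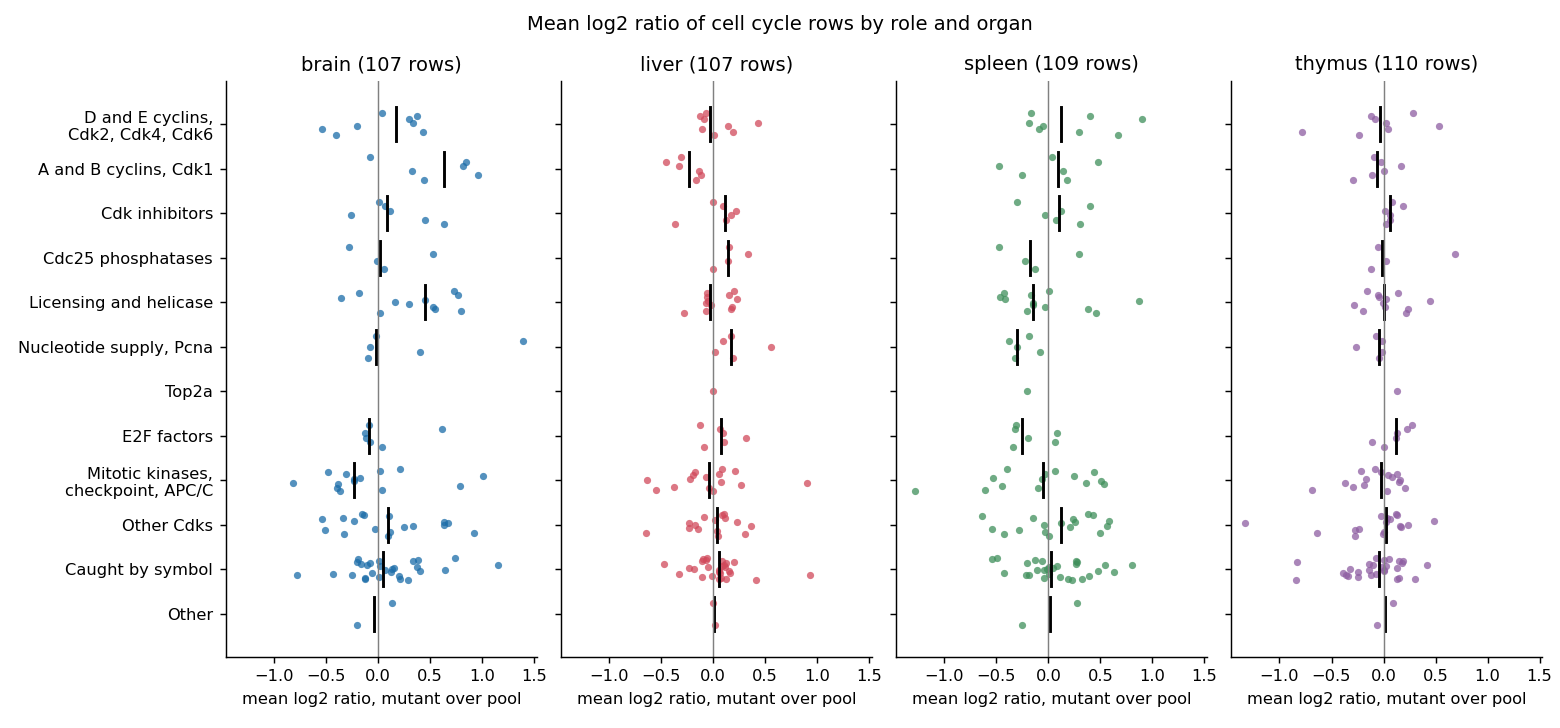
Mean log2 ratio (horizontal axis, mutant over pool) of every member row read in at least 3 mice, by role (vertical axis) and organ; each point is a row and the black bar the median of a role. Licensing and helicase rows (median 0.45) and A and B cyclins with Cdk1 (0.63) lie to the right in brain, and nucleotide supply rows with Pcna lie to the left in spleen (-0.30).

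Mitotic kinases, checkpoint proteins and the anaphase-promoting complex with its regulators had 15 rows. Aurka, the spindle pole kinase, measured 1.44, 1.08 and 0.50 in brain of mice 1 to 3, a mean of 1.01 ± 0.47 (SD, n = 3; limma adjusted p = 0.42), with no value in mouse 4. The other Aurka row had a brain mean of -0.38 ± 1.21 (SD, n = 3). Aurkb, the kinase of the chromosomal passenger complex, had its row among those with uncertain names, at -0.57, -1.40, -0.49 and -0.28 in thymus, a mean of -0.69 ± 0.50 (SD, n = 4; limma adjusted p = 0.86). All 4 values were below 0, but the thymus mean was -1.38 with mutant RNA in Cy5 and 0.25 with mutant RNA in Cy3.

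Plk4, the kinase of centriole duplication, measured -0.52, -0.48, -0.46 and -0.67 in spleen, a mean of -0.53 ± 0.094 (SD, n = 4; limma adjusted p = 0.417). Its mean was below 0 in both dye orientations (-0.42 and -0.65). In the other organs it was at -0.17, -0.07 and 0.08 (brain, liver and thymus). Cdc20, the activator of the anaphase-promoting complex, measured -0.17, -0.21, -1.16 and 0.03 in liver, a mean of -0.38 ± 0.53 (SD, n = 4; limma adjusted p = 0.921), with mouse 3 apart, and had a brain mean of 0.78 ± 0.52 (SD, n = 4).

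The rows of Bub3 show how much the dye mattered. In brain, a row of Bub3 measured -0.39, -0.40, -0.30 and -0.50, a mean of -0.40 ± 0.082 (SD, n = 4; limma adjusted p = 0.42), below 0 in all 4 mice. The mean was -0.997 with mutant RNA in Cy3 and 0.21 with mutant RNA in Cy5. The other Bub3 row had a brain mean of -0.81 ± 0.87 (SD, n = 3) and measured 0.72, 2.18 and -0.19 in liver of mice 1, 3 and 4, a mean of 0.90 ± 1.19 (SD, n = 3; limma adjusted p = 0.921). In spleen the 2 rows lay on opposite sides of 0, at -0.61 ± 0.42 (n = 4) and 0.53 ± 0.60 (SD, n = 3).

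Cdc14b, a phosphatase that acts on Cdk substrates, gave the member row with the smallest p of any organ. It measured -1.44, -1.11, -0.99 and -1.60 in spleen, a mean of -1.29 ± 0.29 (SD, n = 4), with an unadjusted p of 0.000333 and an adjusted p of 0.414 (limma). The 4 spleens all lay below 0, and the mean was below 0 in both orientations (-0.98 and -1.60). This row belongs to the last part of the table, and the other 3 rows of Cdc14b had spleen means of 0.44 ± 0.40 (SD, n = 3), -0.06 ± 0.21 (SD, n = 3) and 0.36 ± 0.71 (SD, n = 4). With the spread shared over the organs, it was the 1 row of 109 member rows that passed adjustment in spleen. Of all rows, 175 of 19591 passed there, a like share.

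Kinases with roles in transcription or elsewhere had 18 rows, with medians of 0.094, 0.032, 0.12 and 0.023 in brain, liver, spleen and thymus. Cdk10 measured -0.72, -0.41 and -0.79 in spleen of mice 2 to 4, a mean of -0.64 ± 0.21 (SD, n = 3; limma adjusted p = 0.434). Cdk12, a kinase of the tail of RNA polymerase II, measured 0.75, 0.39 and 0.61 in the same spleens, a mean of 0.58 ± 0.18 (SD, n = 3; limma adjusted p = 0.452). In both genes the 3 values kept to 1 side of 0. The other 2 rows of Cdk12 had spleen means of 0.20 ± 0.50 and -0.54 ± 0.55 (SD, n = 4). Cdk11b, a kinase linked to pre-mRNA splicing, measured -0.94, -0.78, 0.15 and -1.002 in thymus, a mean of -0.64 ± 0.54 (SD, n = 4; limma adjusted p = 0.86), with mouse 3 on the other side of 0.

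Among genes caught by their symbol, Cdk5rap1, an enzyme that modifies mitochondrial transfer RNA, had the row with the smallest p in brain. It measured 0.94, 0.74, 0.67 and 0.60, a mean of 0.74 ± 0.15 (SD, n = 4; limma adjusted p = 0.42), above 0 in all 4 mice and in both dye orientations (0.36 and 1.12). Its means elsewhere were -0.06 in liver, -0.49 in spleen and -0.07 in thymus. Cdk5r1, the neuronal activator of Cdk5, measured -0.14, -0.41, -1.77 and -0.80 in brain, a mean of -0.78 ± 0.71 (SD, n = 4; limma adjusted p = 0.42). Its 4 values all lay below 0 but spanned a wide range. Cdk2ap1, a Cdk2-associated protein, measured -0.61, -0.51, -0.50 and -0.13, a mean of -0.44 ± 0.21 (SD, n = 4; limma adjusted p = 0.42).

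Plk3, a polo kinase of stress responses, measured -0.63, -0.33, -0.64 and -0.28 in liver, a mean of -0.47 ± 0.19 (SD, n = 4; limma adjusted p = 0.921), and 0.42, 1.29 and 0.70 in spleen of mice 2 to 4, a mean of 0.80 ± 0.45 (SD, n = 3; limma adjusted p = 0.43). The liver means were alike in both dye orientations (-0.48 and -0.46), whereas in spleen they were 0.018 with mutant RNA in Cy5 and 1.59 in Cy3. Cdk5rap2, a centrosomal protein, measured 0.42, 1.00 and 0.47 in spleen of mice 2 to 4, a mean of 0.63 ± 0.32 (SD, n = 3; limma adjusted p = 0.452), and its other row had a spleen mean of 0.26 ± 0.19 (SD, n = 3). Effectors of Cdc42 gave small means: Cdc42ep4 measured -0.27, -0.45, -0.39 and -0.20 in liver, a mean of -0.33 ± 0.11 (SD, n = 4; limma adjusted p = 0.921). Cdc42ep1 measured 0.34, 0.54, 0.23 and 0.12 in thymus, a mean of 0.31 ± 0.18 (SD, n = 4; limma adjusted p = 0.86). In each of these the mice read lay on 1 side of 0, as rows picked for a small p tend to. For Cdc42ep4 the liver mean was 0.19 with mutant RNA in Cy5 and -0.84 with mutant RNA in Cy3.

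**Figure D3:**
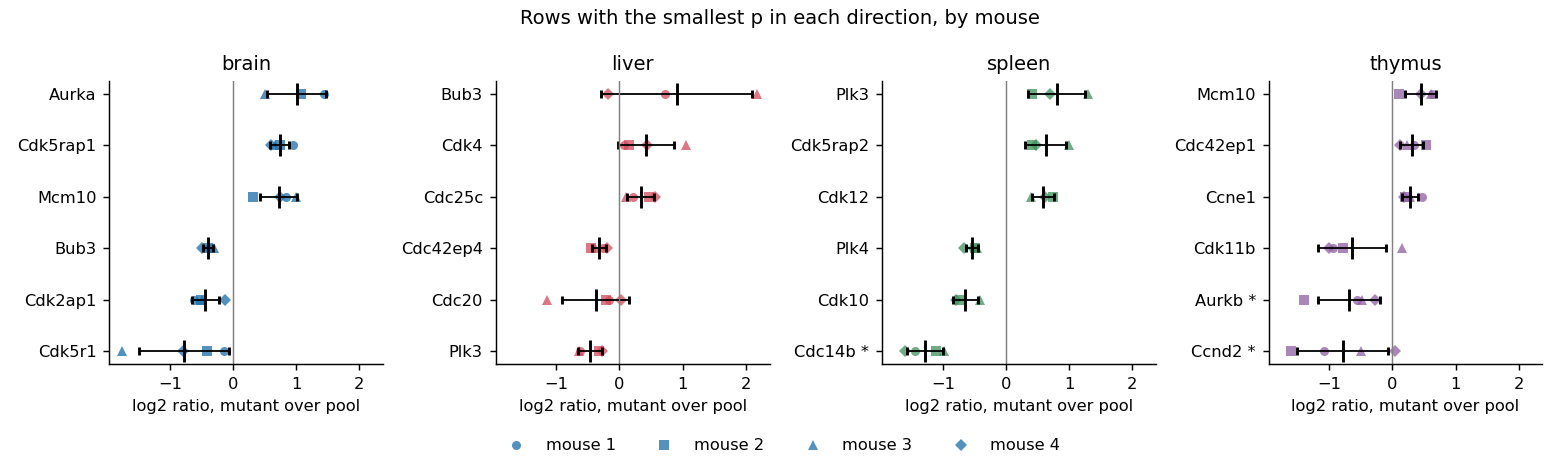
Log2 ratio (horizontal axis, mutant over pool) in each mouse for the 3 member rows per organ with the smallest p in each direction; bars give the mean and SD, and an asterisk marks a row of the last part of the table. The spleen row of Cdc14b lies furthest from 0 with little spread (-1.29 ± 0.29), whereas the liver row of Bub3 spans from -0.19 to 2.18.

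The 4 organs were compared in 1 limma fit over 99 member rows read in at least 3 mice in every organ. After adjustment 0 member rows differed among organs (0% of 18061 rows) and 13 did at an unadjusted p under 0.05, where 10.2% of all rows did. Spleen with thymus minus brain with liver, the contrast of organs with many against few dividing cells, called 0 member rows after adjustment (0% of all rows) and 9 at an unadjusted p under 0.05 (5.88% of all rows). Of these 9, 8 lay lower in spleen and thymus and 1 higher. Over all 18061 rows, 658 lay lower and 404 higher at that p, so the whole array leaned the same way. The median difference over the 99 rows was -0.050, beside -0.0079 over all rows, with 58 rows below 0 (58.6% against 51.2% of all rows). It was below 0 in each of the 4 mice taken alone, at -0.17, -0.090, -0.069 and -0.17. Medians over all rows by mouse are not given for this contrast, so a shift of whole arrays cannot be told apart here. In spleen, mouse 1 had only 52 member rows read.

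The last-part Cdc14b row, low in spleen as given above, had the smallest p among organs (unadjusted p = 0.000691, adjusted p = 0.269, limma). In brain it measured -0.31, -0.49, -0.25 and -0.43, in liver 0.31, -0.25, 0.05 and -0.12, and in thymus 0.06, 0.85, -0.03 and -0.74. The spleen values of this row did not overlap those of the other organs, but the row was picked for its small p among organs. The Aurka row of brain measured 0.04, -0.63, 0.33 and -0.53 in liver, 0.35, 0.32 and 0.08 in spleen of mice 2 to 4, and -0.06, 0.34, -0.08 and -0.02 in thymus (adjusted p = 0.347 among organs, limma). Its brain values lay above those of the other organs without overlap, and this row was picked in the same way. How many rows of the whole array show such a gap was not counted, so neither gap can be set against that share.

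The Mcm10 row with the smallest brain p measured 0.14, 0.31 and 0.16 in liver of mice 1, 2 and 4, 0.50, -0.22 and -0.27 in spleen of mice 2 to 4, and 0.08, -0.15, -0.44 and -0.14 in thymus. Its mean over spleen and thymus was -0.079 and over brain and liver 0.46, a difference of -0.54 (SE 0.19, adjusted p = 0.831, limma). Mcm5 measured 0.57, 0.87 and -0.09 in brain of mice 1, 2 and 4, 0.15, -0.02, 0.57 and 0.20 in liver, and -0.46, -0.07, -0.03 and 0.67 in thymus. Its means were -0.19 over spleen and thymus and 0.34 over brain and liver, a difference of -0.53 (SE 0.21, adjusted p = 0.838, limma). A Cdc14b row outside the last part went the other way, with -0.22, -1.03 and -0.20 in brain of mice 1 to 3, -0.09, -0.36, -0.24 and -0.01 in liver, 0.16, 0.26 and 0.90 in spleen of mice 2 to 4, and -0.17, 0.17, 0.07 and -0.16 in thymus. Its difference was 0.54 (SE 0.20, adjusted p = 0.838, limma).

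**Figure D4:**
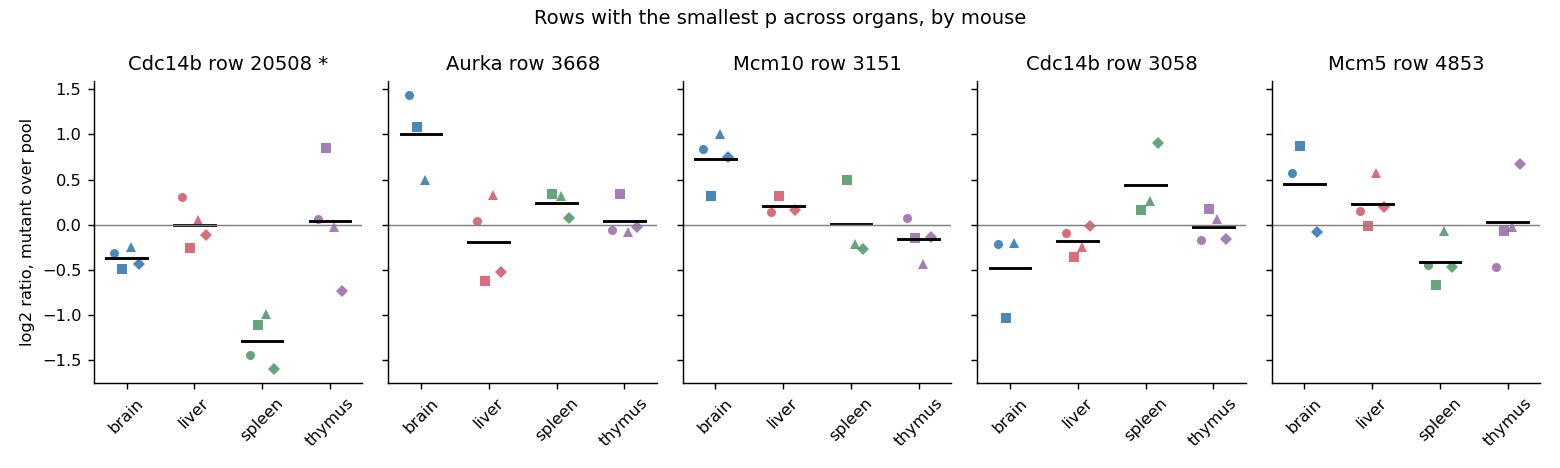
Log2 ratio (vertical axis, mutant over pool) by organ (horizontal axis) for the member rows with the smallest p in the tests across organs; symbols are mice 1 to 4 (circle, square, triangle, diamond), black lines the organ means, and the asterisk marks a row of the last part of the table. Cdc14b row 20508 is low in spleen in all 4 mice, and Aurka row 3668 is high in brain in the 3 mice read.

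Rows of 1 gene often went apart. Among the 25 genes with several rows, all rows had means on 1 side of 0 for 16 genes in brain and 12 in liver, and for 9 and 10 of 24 genes in spleen and thymus. The median gap between the lowest and highest row of a gene was 0.39 in brain, 0.25 in liver, 0.36 in spleen and 0.23 in thymus, beside a median SD of a member row between mice of 0.48, 0.35, 0.34 and 0.32. Consistency over mice was no more frequent than on the whole array in 3 organs: of member rows read in all 4 mice, 26.0% kept 1 sign in brain (28.2% of all rows), 11.5% in liver (13.1%) and 5.88% in thymus (13.1%). In spleen 30.8% did, 14 of 52 rows below 0 and 2 above. Over all rows there, 26.2% kept 1 sign, 1262 of 9090 below 0 and 1122 above. These 52 are the member rows read in the spleen arrays of mouse 1, which gave fewer values than the others.

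The dye swap sets a further limit. Between the 2 arrays of a mouse, the correlation over member rows ran from -0.083 to 0.090 in brain, from -0.23 to -0.023 in liver, from -0.29 to 0.19 in spleen and from 0.14 to 0.32 in thymus, given as a description over rows that share an array. Of member rows read in both orientations, the means had 1 sign in 45 of 108 rows in brain, 34 of 108 in liver, 54 of 110 in spleen and 52 of 108 in thymus, and over all rows in 44.2%, 39.4%, 51.6% and 48.3%. Across rows, the means of the orientations correlated at -0.49 over liver members (-0.26 over all rows). In brain the arrays with mutant RNA in Cy3 alone called 5 of 112 member rows lower, beside 3.4% of all rows, and 1 higher, beside 3.57% (limma, adjusted p under 0.05). The 5 were both Bub3 rows (-1.56 and -0.997), Cdk2ap1 (-1.17), Cdk5r1 (-1.07) and the last-part row of Cdk2 (-1.11), and the other was Cdk5rap1 (1.12). With mutant RNA in Cy5 the same rows read 0.082, 0.21, 0.29, -0.49, 0.30 and 0.36, so 4 of the 6 changed sign.

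**Figure D5:**
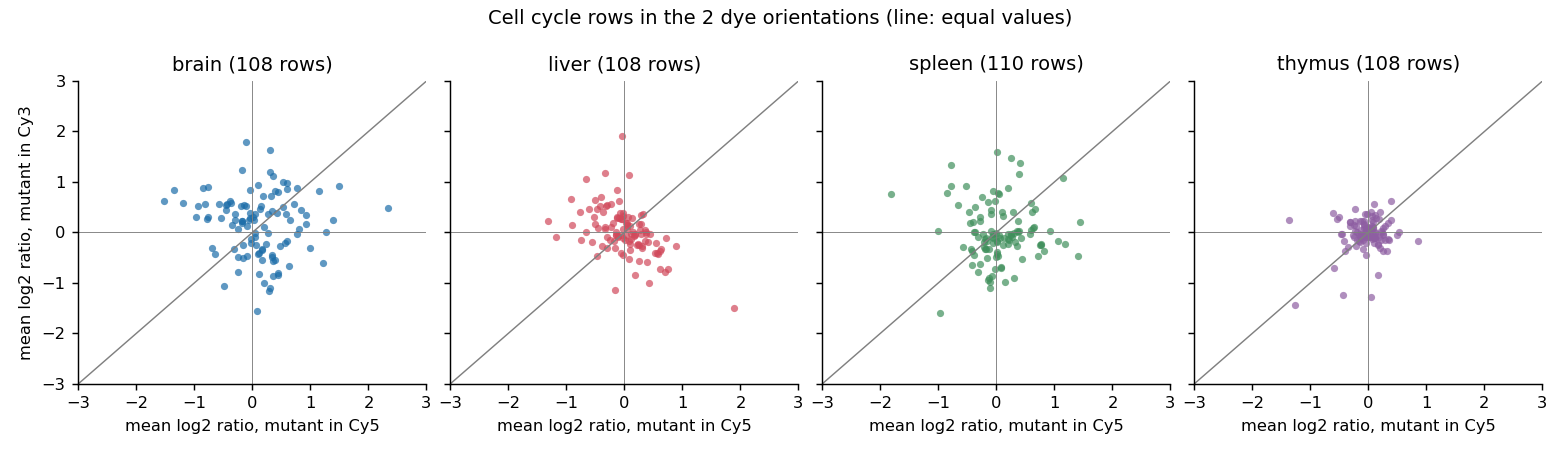
Mean log2 ratio of each member row with mutant RNA in Cy5 (horizontal axis) and in Cy3 (vertical axis), by organ, with a line of equal values. The points gather along no rising line: in liver only 34 of 108 rows have 1 sign in both orientations.

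A list of 70 other genes of replication and mitosis (origin recognition, polymerases, checkpoint kinases, kinesins, cohesins), 51 of them with a row, was read beside the members. After adjustment 0 of 56, 57, 60 and 61 tested rows were called in brain, liver, spleen and thymus, and the list medians were 0.0019, -0.011, -0.026 and -0.039. At an unadjusted p under 0.05 (limma), 3 rows of the list lay below 0 and 2 above in brain (4.44% and 7.25% of all rows), 2 and 0 in liver (1.79% and 2.7%), 3 and 0 in spleen (5.1% and 5.57%), and 0 and 0 in thymus (2.44% and 0.684%). The members had 14 rows above 0 and 1 below in brain, and the difference between them and the list was not tested. Both rows of Rbl2, a pocket protein that binds E2F, were among the 3 in spleen, at -0.89 ± 0.65 and -0.69 ± 0.50 (SD, n = 4). A row of Rbl2 was also at -0.65 ± 0.41 in brain.

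Markers of other cell types were read in the same fits. Of the 10 B cell markers, 5 had a row. In spleen, 6 of 6 tested B cell marker rows lay below 0, where 40.7% of all rows did. Their median was -0.81, with medians by mouse from -1.15 to -0.66. Of these rows, 5 had an unadjusted p under 0.05 (limma), where 5.1% of all rows lay below 0 at that p. B cell marker rows also lay below 0 in thymus (7 of 7, median -0.16, 0 at that p), and above 0 in brain (4 of 4, median 0.46). Exocrine pancreas markers lay below 0 in spleen as well (3 of 3, median -0.44). Erythroid markers in spleen had 8 of 9 rows below 0 (median -0.54, by mouse -1.10 to 0.092), and T cell markers 4 of 8 (median -0.068). Myeloid markers there had 5 of 10 rows below 0 and hepatocyte markers 4 of 8. Neuron markers in spleen had 9 of 10 tested rows above 0 (median 0.24, by mouse 0.074 to 1.20), so a list foreign to the organ also kept mostly to 1 side. In brain, erythroid markers had 6 of 9 rows below 0 (median -0.61, by mouse -1.19 to -0.12). The median of the neuron markers was -0.094 in brain, that of the hepatocyte markers -0.052 in liver, and that of the T cell markers 0.017 in thymus. The part of these markers in the values of the cell cycle rows was not tested. In whole organs, fewer cells of a type and less RNA per cell cannot be told apart. Because both channels held RNA of 1 organ, the ratios do not show whether an organ expressed its own markers.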

How the data were processed

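Dual-colour cDNA arrays measured RNA of 4 organs from 4 mice of the Dll1 line against wild-type pools. Per the labels and, where the sources describe the same samples, the study's methods, the authors reverse-transcribed total RNA, labelled it with Cy3 or Cy5, and scanned and quantified the slides with GenePix software. They deposited 1 log2 ratio per spot and array, and the base of the logarithm follows their table heading. The normalization, the filter on weak spots and the direction are not given in the sources used here, and no intensities were analysed here, which leaves the signal of each spot over its background unknown. The number of arrays limits the precision.

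No normalization was added. Values beyond 12 in size were set to missing (6 values of member rows, 3322 values remaining). The 2 arrays of a mouse were averaged to 1 replicate where both had a value. The lone thymus array of mouse 2 was corrected row by row by the dye difference of the other mice. limma 3.58.1 (R 4.3.3) tested the mouse means against 0 in each organ and among organs, with Benjamini-Hochberg adjustment over all rows read in at least 3 mice and a threshold of 0.05. The alternatives in the closing section were single mice left out, other readings, centring, scaling, filters, single dye orientations and other fits. Mouse numbers pair the organs because the same animals gave them. Deviations of 1 mouse correlated between organs at -0.073 to 0.060 (24 pairs of organs and mice, median -0.0077). Deviations of different mice correlated at -0.068 to 0.083 (72 pairs, median 0.0017), so the values themselves do not show the pairing. Named rows are the 3 with the smallest p per direction and organ, the 3 with the smallest p in each test across organs, Cdk2, Top2a, Pcna, Rrm1, Rrm2 and the Mcm genes, with the other rows of those genes. Members, roles, lists and marker genes were chosen with earlier results of these data known. Gene names come from the platform's probe table. Sequences are from RefSeq (GRCm38.p6). Python 3.11.15, pandas 2.3.3 and numpy 2.4.6 made the summaries.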

Additional observations from a re-analysis of the deposited data

How the results depend on the processing

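No member row passed adjustment in liver, thymus or the tests across organs under any alternative for which calls were counted. For single dye orientations, calls are given only for brain with mutant RNA in Cy3. There 5 of 112 member rows were called lower (3.4% of all rows) and 1 higher (3.57%). With a spread shared by the organs, 68 of 19102 rows were called in brain, none of them among the 107 member rows. In spleen 175 of 19591 rows were called, with 1 of 109 member rows (Cdc14b, last part of the table). Among organs, leaving out a mouse gave 0 to 1 rows, the 1 without mouse 3. With mouse as a replicate block, 0 rows and 0 member rows were called among organs and in the contrast. The median over members in spleen was -0.12 to -0.037 when a mouse was left out, -0.11 over rows with 4 mice, 0.097 read as Cy5 over Cy3, 0.085 with the probe numbers as listed, 0.0044 with lone values kept or a dye term, and 0.017 and -0.081 with mutant RNA in Cy5 or Cy3 alone. In brain it was 0.26 with mutant RNA in Cy3 alone, -0.014 with centred arrays, -0.0070 centred and scaled, and -0.030 as Cy5 over Cy3. In liver it was -0.017 as Cy5 over Cy3, -0.026 with mutant RNA in Cy5 alone and -0.025 in Cy3 alone. Member rows at an unadjusted p under 0.05 ranged over the alternatives from 9 to 20 in brain, 1 to 19 in liver, 1 to 15 in spleen and 0 to 6 in thymus.

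Read as Cy5 over Cy3, 16 of 26 named values reversed. In brain these were Cdk5r1 (0.29), Cdk2ap1 (0.73), Bub3 (0.60), Cdk5rap1 (-0.38) and Mcm10 (-0.13), and in liver Cdc42ep4 (0.52), Cdc25c (-0.025), Cdk4 (-0.76) and Bub3 (-0.82). In spleen they were Cdc14b (0.31), Plk4 (0.12), Cdk10 (0.51) and Plk3 (-0.78), and in thymus Cdk11b (0.64), Mcm10 (-0.18) and Ccne1 (-0.11). With mutant RNA in Cy5 alone, Cdk2ap1 (0.29) and Bub3 (0.21) in brain, Cdc42ep4 (0.19) and Cdk4 (-0.33) in liver and Cdk11b (0.041) in thymus reversed. With mutant RNA in Cy3 alone, Cdc20 (0.14) and Cdk2 (-0.73) in liver and Aurkb (0.25) in thymus reversed. In liver the Cdk2 rows ran from -0.30 to 0.0082 and from -0.12 to 0.085 when a mouse was left out, and the second was at -0.0023 with centred arrays. The cause was not tested. The unknown direction, the inferred names and the lack of intensities limit every value.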
